A study of Mus musculus with 18 samples.

Results

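The medial ganglionic eminence (MGE), a ventral swelling of the embryonic forebrain, was compared with the cortex, its dorsal neighbour, in wild-type C57BL/6 mice at E13.5. The comparison took the 3 MGE WT and the 3 cortex WT libraries of a series of 18 libraries, which also holds Chd2+/- (HET) animals and an adult hippocampus. None of the 6 libraries came from a mutant or a treated animal, and the embryos carried no transgene that the labels name. Each library was made from poly(A) RNA of the dissected tissue, extracted with Trizol, and held 26841671 to 38802765 counts. Of 22793 autosomal genes in the count table, 14143 had enough counts to be tested. The 3 MGE HET and 3 cortex HET libraries, from E13.5 C57BL/6 embryos with one mutated copy of Chd2, served only as a second pair of tissues. The labels do not say whether replicates are separate embryos, litters or pools, so p-values measure the spread between these libraries.

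The MGE gives rise to GABAergic interneurons that migrate into the cortex, to neurons of the basal forebrain, and to early oligodendrocyte precursors. Sonic hedgehog from ventral sources induces Nkx2-1 there, and Dlx factors drive the GABAergic programme. The dorsal progenitors of the cortex carry Pax6, Emx and Neurog factors and produce glutamatergic neurons through intermediate progenitors, while Wnt and BMP ligands reach the cortex from the hem and roof at its midline. Interneurons of ventral origin are known to be entering the cortex at about this stage.

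Both tissues carried the marker of their label. Nkx2-1, the homeodomain factor that defines MGE identity (chromosome 12, 56531958 to 56536908, minus strand, mm10), was measured at 805, 875 and 907 CPM in MGE against 0.686, 0.490 and 1.59 CPM in cortex on the TMM-normalised counts-per-million (CPM) scale. Emx1, a homeodomain factor of dorsal progenitors and their neurons (chromosome 6, 85187438 to 85204462, plus strand), was measured at 118, 147 and 122 CPM in cortex against 0.390, 0.573 and 0.668 CPM in MGE. The groups did not overlap for either gene, and each tissue held the marker of the other at under 2 CPM in every library. Sex-linked genes were set aside from the counts below because the groups differed in them. Xist, the RNA that coats the inactive X chromosome, stood at 1793 to 1958 CPM in MGE and at 1282 and 1329 CPM in cortex libraries 2 and 3. Cortex library 1 held 0.998 CPM of Xist and 249 CPM of 4 Y-linked genes, which reached at most 0.101 CPM in the other 5. Without cortex library 1, so that all 5 libraries carried Xist, 5846 autosomal genes passed the test, 5697 of them among the 7010 of the full comparison.

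About as many genes passed the test between the tissues as did not. At an edgeR adjusted p under 0.05, 7010 of 14143 autosomal genes (49.6%) differed, 3527 (24.9%) higher in MGE and 3483 (24.6%) higher in cortex. Of the called genes, 3429 (48.9%) differed by under 1.5-fold, and the median absolute log2 fold change over all tested genes was 0.35. Large differences leaned to the cortex. At 2-fold or more, 2150 genes (15.2%) were called, 772 (5.46%) higher in MGE and 1378 (9.74%) higher in cortex. At 8-fold or more the counts were 145 (1.03%) in MGE and 346 (2.45%) in cortex, and at 32-fold or more they were 50 and 102. The values of the groups did not overlap in 8353 genes (59.1%). Lack of overlap in genes named below is to be read beside that share, and calls in gene lists beside 24.9% and 24.6%. Many genes were named for a large called change, which itself favours separation. In bulk tissue, fewer cells of a type and less RNA per cell cannot be told apart, and this holds for every gene below.

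**Figure D1:**
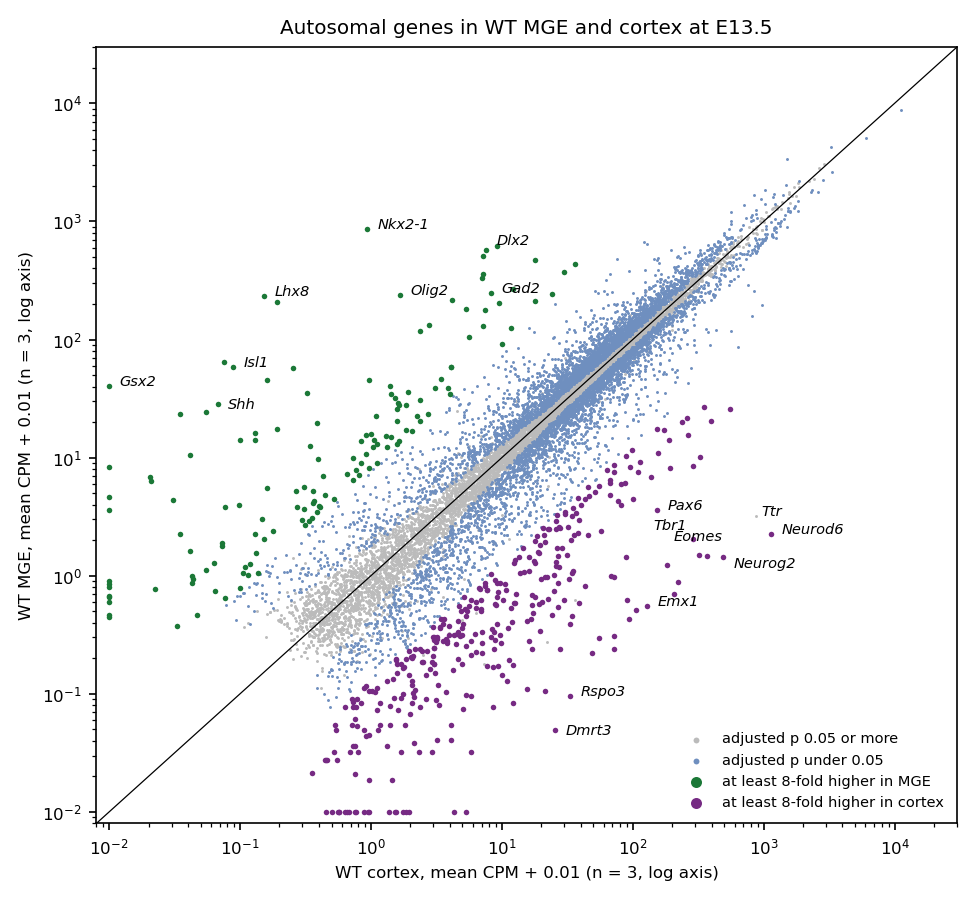
Mean TMM-normalised CPM of each tested autosomal gene in WT MGE (vertical, log axis) against WT cortex (horizontal, log axis), 3 libraries each, with 0.01 added so that genes at 0 can be drawn. Grey points had an adjusted p of 0.05 or more, blue points passed it at under 8-fold, and green and purple points mark the 145 genes at least 8-fold higher in MGE and the 346 at least 8-fold higher in cortex.

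Regulators that divide the ventral from the dorsal forebrain were almost all called. Of 34 tested, 15 were higher in MGE, all of them at least 2-fold, and 17 were higher in cortex, 16 of them at least 2-fold, beside the 5.46% and 9.74% of all tested genes. The list was drawn up for this division, so its counts describe the dissections and are no independent finding. Otx2, a homeodomain factor of the forebrain and midbrain, was among those not called, at 40.7, 26.9 and 23.3 CPM in MGE against 24.6, 1.44 and 12.2 CPM in cortex (log2 fold change 1.25, SE 0.96, edgeR adjusted p = 0.348; log2 fold change 2.16 without cortex library 1), and the groups overlapped.

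**Figure D2:**
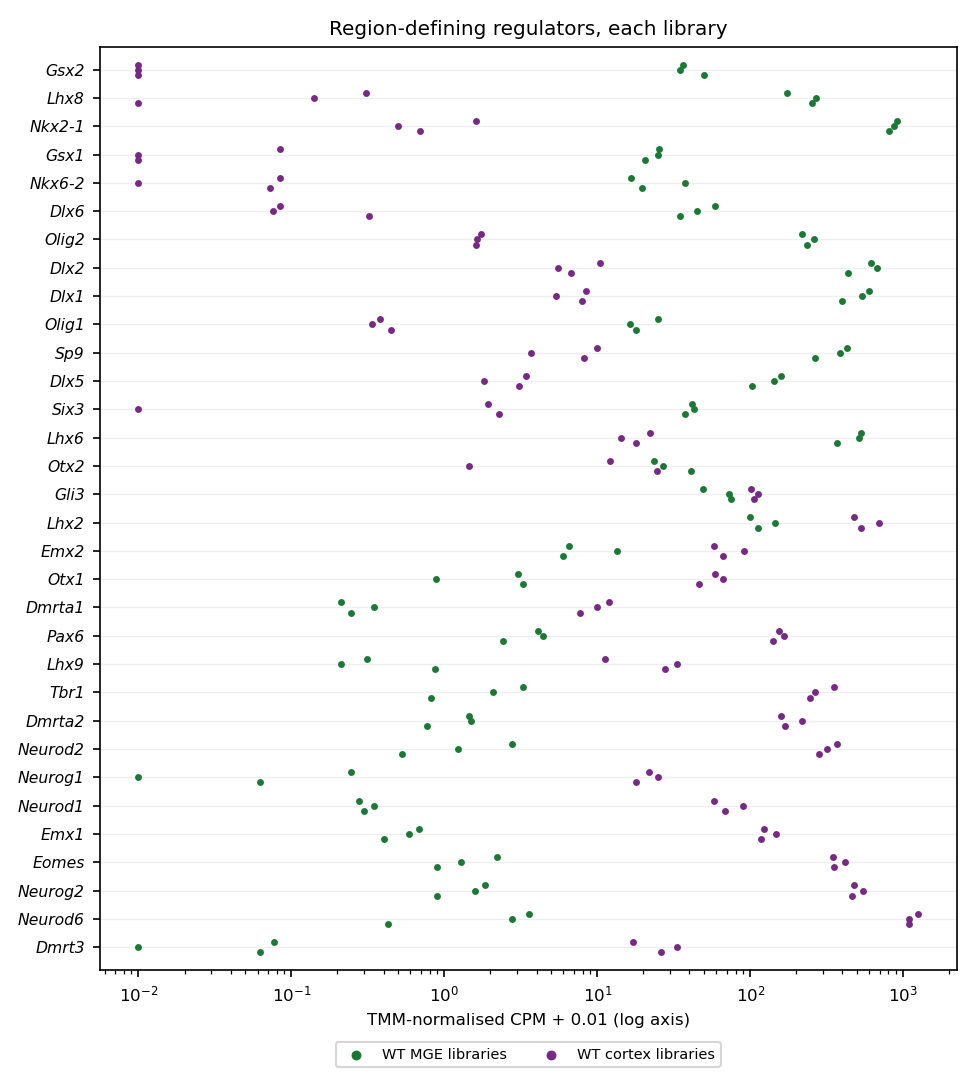
TMM-normalised CPM plus 0.01 (log axis) of the region-defining regulators shown, 1 row a gene and 1 point a library, green for the 3 WT MGE and purple for the 3 WT cortex libraries. Rows run from the largest excess in MGE at the top (Gsx2, Lhx8, Nkx2-1) to the largest excess in cortex at the bottom (Neurod6, Dmrt3), and the colours overlap only for Otx2 among those shown.

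Among the ventral homeodomain factors, Nkx2-1 was 935-fold higher in MGE (log2 fold change 9.90, SE 0.30, edgeR adjusted p = 5.05e-07; 10.49 without cortex library 3, which held the most). Lhx8, a LIM factor of basal forebrain cholinergic neurons (chromosome 3, 154306294 to 154330659, minus strand), was measured at 252, 268 and 175 CPM in MGE against 0, 0.131 and 0.296 CPM in cortex. Its log2 fold change was 10.71, SE 0.41 (edgeR adjusted p = 3.34e-06), and it ran from 10.07 without cortex library 1 to 11.73 without cortex library 3, since it rests on few cortex counts. Gsx2, which acts upstream of Dlx genes in ventral progenitors, reached 49.5, 34.7 and 36.2 CPM in MGE. No Gsx2 count was seen in cortex, and against a floor of 3 counts per library it was at least 398-fold higher in MGE. Its relative Gsx1 stood at 20.5, 24.9 and 25.3 CPM in MGE against 2 counts in all of cortex, a ratio of 1046 with a 95% counting interval of 289 to 8640. Both Gsx genes, like Nkx2-1 and Lhx8, had no overlap between tissues.

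The Dlx genes, homeobox factors of GABAergic neurons, were present in cortex at a low level. Dlx2 was measured at 436, 677 and 614 CPM in MGE against 6.74, 5.56 and 10.4 CPM in cortex (log2 fold change 6.26, SE 0.32, edgeR adjusted p = 2.43e-05). Dlx1 was measured at 396, 535 and 597 CPM in MGE against 7.92, 5.36 and 8.39 CPM in cortex (log2 fold change 6.14, SE 0.24, edgeR adjusted p = 1.49e-06). Its exons overlap Dlx1as on the opposite strand, so reads of the pair cannot be told apart without the strand setting. Dlx5 reached 102, 142 and 158 CPM in MGE against 3.06, 1.80 and 3.40 CPM in cortex. Dlx6 reached 34.5, 44.5 and 58.4 CPM in MGE against 0.312, 0.0654 and 0.0739 CPM in cortex, with a log2 fold change of 8.16, SE 0.39 that was 9.27 without cortex library 1. All 4 Dlx genes were thus present in every cortex library, at 48.7-fold (Dlx5) to 305-fold (Dlx6) lower mean levels than in MGE, with no overlap.

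Factors of the neurons and glia made by the ventral forebrain were also higher in MGE. Lhx6, which acts below Nkx2-1 in postmitotic interneurons, was measured at 371, 514 and 531 CPM in MGE against 17.9, 14.2 and 22.1 CPM in cortex (log2 fold change 4.71, SE 0.22, edgeR adjusted p = 3.47e-06). The bHLH factor Olig2, needed for oligodendrocytes and for ventral progenitors, stood at 235, 263 and 218 CPM in MGE against 1.59, 1.63 and 1.74 CPM in cortex. Olig1, its neighbour on chromosome 16, stood at 17.9, 16.4 and 24.8 CPM in MGE against 0.437, 0.327 and 0.370 CPM in cortex. Sp9, a zinc finger factor of ventral neurons, reached 265, 386 and 426 CPM in MGE against 8.11, 3.69 and 9.87 CPM in cortex. Isl1, a LIM factor of striatal and cholinergic neurons (chromosome 13, 116298281 to 116309689, minus strand), was measured at 49.3, 66.4 and 58.7 CPM in MGE against 0.125, 0 and 0.111 CPM in cortex (log2 fold change 9.47, SE 0.31, edgeR adjusted p = 3.55e-08). The MGE libraries lay above all cortex libraries for each of these 5 genes.

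Dorsal factors showed the reverse, and most were nearly absent from MGE. Neurod6, a bHLH factor of cortical excitatory neurons, was measured at 1090.4, 1091 and 1248 CPM in cortex against 0.416, 2.77 and 3.54 CPM in MGE (log2 fold change -9.05, SE 0.69, edgeR adjusted p = 0.000487). Neurog2, the proneural factor of dorsal progenitors, reached 461, 542 and 477 CPM in cortex against 0.884, 1.58 and 1.84 CPM in MGE (log2 fold change -8.46, SE 0.21, edgeR adjusted p = 1.62e-08). Neurog1, its relative, reached 17.8, 24.9 and 21.7 CPM in cortex against 0.0520, 0 and 0.234 CPM in MGE (log2 fold change -7.80, and -9.33 without MGE library 3). Eomes, the T-box factor of intermediate progenitors, was measured at 350.4, 416 and 345 CPM in cortex against 0.884, 1.28 and 2.21 CPM in MGE (log2 fold change -8.02, SE 0.26, edgeR adjusted p = 4.37e-07). Tbr1, the T-box factor of their early-born neurons, reached 247, 264 and 354 CPM in cortex against 0.806, 2.06 and 3.24 CPM in MGE (log2 fold change -7.19, SE 0.44, edgeR adjusted p = 9.33e-05). The bHLH genes, Eomes and Tbr1 were seen in the MGE libraries at no more than 3.54 CPM, and none overlapped. MGE library 1 held the least Neurod6, Neurog2, Eomes and Tbr1 of the 3, and MGE library 3 the most.

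The dorsal progenitor factors included the doublesex-related genes Dmrt3 and Dmrta2. Dmrt3 was measured at 26.1, 32.96 and 17.1 CPM in cortex against 0.0520, 0 and 0.0668 CPM in MGE (log2 fold change -9.15, SE 0.46, edgeR adjusted p = 8.23e-07). Dmrta2 was measured at 169.6, 216 and 159 CPM in cortex against 0.754, 1.48 and 1.44 CPM in MGE (log2 fold change -7.25, SE 0.23, edgeR adjusted p = 2.15e-07). Pax6, a paired-box factor of dorsal radial glia, was measured at 141, 167 and 155 CPM in cortex against 2.39, 4.38 and 4.08 CPM in MGE (log2 fold change -5.44, SE 0.20, edgeR adjusted p = 3.19e-07). Emx1 was 237-fold higher in cortex (log2 fold change -7.91, SE 0.17, edgeR adjusted p = 5.27e-10), while Emx2, whose exons overlap Emx2os, was only 8.30-fold higher (log2 fold change -3.06, SE 0.38, edgeR adjusted p = 0.00128). Lhx2, a LIM factor that both tissues express, was measured at 530.1, 692 and 474 CPM in cortex against 111, 146 and 99.1 CPM in MGE (log2 fold change -2.25, SE 0.19, edgeR adjusted p = 7.17e-05). Gli3, the hedgehog-pathway repressor of dorsal identity, differed least, at 106, 112 and 101 CPM in cortex against 74.5, 72.4 and 48.9 CPM in MGE (log2 fold change -0.70, SE 0.15, edgeR adjusted p = 0.00465). Among the dorsal regulators, then, the excess in cortex ran from 1.63-fold for Gli3 to 641-fold for Dmrt3 on the ratio of mean CPM.

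Among genes with at least 20 CPM in the higher tissue, the largest differences included genes not yet described. In MGE there was Nkx6-2, a homeodomain factor of ventral progenitors, at 19.5, 37.5 and 16.6 CPM in MGE against 0.0624, 0 and 0.0739 CPM in cortex. Vax1, a factor of the ventral forebrain midline, was measured at 46.2, 65.3 and 59.6 CPM in MGE against 0.312, 0.131 and 0.296 CPM in cortex. Slc10a4, a vesicular transporter of cholinergic and monoaminergic neurons, reached 50.3, 29.1 and 26.9 CPM in MGE against 0.343, 0.458 and 0.148 CPM in cortex. In cortex there was Tfap2c, an AP-2 factor of dorsal progenitors, at 65.5, 76.3 and 72.5 CPM in cortex against 0.156, 0.0674 and 0.468 CPM in MGE (log2 fold change -8.29, and -9.20 without MGE library 3). Bhlhe22, a factor of cortical projection neurons, was measured at 211, 223 and 183 CPM in cortex against 0.520, 0.472 and 1.07 CPM in MGE. Fezf2, which specifies those of the deep layers, stood at 217, 235 and 218 CPM in cortex against 0.260, 0.742 and 1.60 CPM in MGE (log2 fold change -8.07, and -8.87 without MGE library 3). Nhlh1, a bHLH factor of newborn neurons, reached 83.6, 111 and 84.4 CPM in cortex against 0.234, 0.371 and 0.668 CPM in MGE. Passing the test and not overlapping between the tissues were conditions of this ranking, so neither is a result for these 7 genes. Their edgeR adjusted p ran from 1.16e-08 (Vax1) to 1.92e-05 (Fezf2).

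Ranked by the difference in level per kilobase of exon, other genes came first. In MGE the largest difference was that of Nnat, an imprinted gene of neural tissue, at 1841 CPM per kb against 824 in cortex. Nkx2-1 came next with 303 CPM per kb in MGE against 0.324, followed by Ckb, a creatine kinase, with 579.9 against 291. In cortex, Neurod6 stood at 532 CPM per kb against 1.04 in MGE. Translation genes had still larger differences on this scale, namely Rplp1 with 2499.5 CPM per kb against 1442 and Eef1a1 with 4530.4 against 3512. Rplp1 and Eef1a1 differed by log2 fold changes of -0.79 (SE 0.091) and -0.37 (SE 0.059), so their place came from a high level and a small difference. Neurod6 thus had both one of the largest differences per kb in cortex and a mean CPM 510.2-fold above that in MGE.

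The windows upstream of the start are shown for 5 genes that were chosen after their values were seen, 3 higher in MGE and 2 higher in cortex. They are the 250 bases before the RefSeq start in GRCm38.p6 (the mm10 assembly), printed 5′ to 3′ on the strand of the gene, with a searched motif in capitals where one occurs. Lhx8 (chr3:154330561-154330810, minus strand) is shown because the noncoding gene AI606473 starts on the other strand just beyond the window, at 154330821. The window holds nearly all of the sequence between that start and the RefSeq start of Lhx8. The position of Lhx8 given above is from GENCODE M21, which places its start at 154330659, inside this window. Isl1 (chr13:116309689-116309938, minus strand) and Dll3 (chr7:28301786-28302035, minus strand) hold CAGCTG, an E-box, the kind of site that bHLH factors are known to bind. The Dll3 window lies inside the GENCODE span of Dll3, which reaches 28302238. Neurod2 (chr11:98329646-98329895, minus strand) and Nhlh1 (chr1:172057597-172057846, minus strand) hold CAGATG, an E-box that Neurog2 and Neurod factors are known to bind.
Lhx8: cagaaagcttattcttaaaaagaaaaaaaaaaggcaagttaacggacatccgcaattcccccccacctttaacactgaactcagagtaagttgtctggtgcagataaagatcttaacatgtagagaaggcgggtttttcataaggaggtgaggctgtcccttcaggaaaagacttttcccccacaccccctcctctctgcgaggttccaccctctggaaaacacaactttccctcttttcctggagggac
Isl1: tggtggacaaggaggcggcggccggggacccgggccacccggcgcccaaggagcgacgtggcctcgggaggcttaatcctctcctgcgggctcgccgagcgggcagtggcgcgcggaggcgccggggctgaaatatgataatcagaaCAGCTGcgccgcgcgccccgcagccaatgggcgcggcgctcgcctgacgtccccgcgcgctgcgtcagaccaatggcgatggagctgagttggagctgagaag
Dll3: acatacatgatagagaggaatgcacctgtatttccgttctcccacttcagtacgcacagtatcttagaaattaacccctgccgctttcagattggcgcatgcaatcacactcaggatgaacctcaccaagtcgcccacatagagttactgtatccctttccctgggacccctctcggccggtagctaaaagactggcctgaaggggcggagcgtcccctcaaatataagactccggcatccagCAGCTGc
Neurod2: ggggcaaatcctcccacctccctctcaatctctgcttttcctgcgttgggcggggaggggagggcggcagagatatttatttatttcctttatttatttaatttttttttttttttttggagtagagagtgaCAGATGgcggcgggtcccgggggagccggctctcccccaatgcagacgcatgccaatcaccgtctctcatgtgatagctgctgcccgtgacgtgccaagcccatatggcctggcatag
Nhlh1: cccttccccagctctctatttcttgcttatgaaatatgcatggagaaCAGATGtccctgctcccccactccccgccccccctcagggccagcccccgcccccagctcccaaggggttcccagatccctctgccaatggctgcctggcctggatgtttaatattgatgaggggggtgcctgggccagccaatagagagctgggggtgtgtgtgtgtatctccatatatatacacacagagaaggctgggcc

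The first base of the motif lies 103 bases before the start in Isl1, 7 in Dll3, 118 in Neurod2 and 203 in Nhlh1. Such matches were frequent. Among 8389 tested genes with a single RefSeq window of this kind, CAGATG (both strands) stood in 9.60%, against 14.9% of the genes at least 8-fold higher in cortex (30 of 201) and 8.86% of those at least 8-fold higher in MGE (7 of 79). Of the region-defining regulators with a single window, only Neurod2 and Gli3 held CAGATG. The windows of Neurog1, Neurog2, Eomes, Tbr1, Neurod1, Neurod6 and Emx1 did not hold it. CAGCTG, which reads the same on both strands, stood in 11.9% of all windows, in 18.04% of the genes at least 2-fold higher in MGE and in 14.6% of those at least 2-fold higher in cortex. At 8-fold or more the CAGCTG shares were 12.7% in MGE and 14.9% in cortex, so the order of the tissues depended on the fold. The homeodomain core TAATTA stood in 2.05% of all windows, 2.53% of the 8-fold MGE genes and 3.98% of the 8-fold cortex genes. For CAAGTG, the core bound by NK2 factors such as Nkx2-1, the shares were 9.23%, 11.4% and 13.4%. These are descriptions of short windows, and no test was made on them.

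GABAergic and glutamatergic transmission split by tissue in the genes that load or make the transmitter, and less in the receptors. In the GABA list, of 16 tested members, 9 were higher in MGE, 5 were higher in cortex and 2 were not called, and the median log2 fold change was 0.72 beside 0.0016 over all tested genes. Gad1, which makes GABA, was measured at 183, 161 and 262 CPM in MGE against 8.61, 8.14 and 11.8 CPM in cortex (log2 fold change 4.41, SE 0.25, edgeR adjusted p = 1.67e-05). The second enzyme, Gad2, reached 215, 235 and 290.0 CPM in MGE against 10.2, 4.94 and 9.64 CPM in cortex (log2 fold change 4.90, SE 0.30, edgeR adjusted p = 5.12e-05). Slc32a1, which loads GABA into vesicles, reached 86.1, 112 and 119 CPM in MGE against 5.74, 3.92 and 7.17 CPM in cortex (log2 fold change 4.24, SE 0.23, edgeR adjusted p = 5.29e-06). These genes were present in every cortex library and did not overlap with MGE. Of the 5 members higher in cortex, 4 were GABA-A receptor subunits, among them Gabrb1 and Gabra2. Gabrb1 stood at 2.25, 1.60 and 1.29 CPM in cortex against 0.442, 0.169 and 0.301 CPM in MGE. Gabra2 stood at 10.3, 14.4 and 5.76 CPM in cortex against 3.17, 4.08 and 4.48 CPM in MGE. The other was Slc6a13, a GABA transporter of meninges and vessels, at 18.7, 6.90 and 8.54 CPM in cortex against 0.182, 0.169 and 0.200 CPM in MGE. Summed CPM of the meninges list was 819 to 1355 CPM in cortex against 268 to 406 CPM in MGE, and the part of those cells in Slc6a13 was not tested.

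For glutamate genes the calls were even. Of 29 tested, 10 were higher in MGE, 11 higher in cortex and 8 not called, beside 24.9% and 24.6% of all tested genes. Slc17a6, a vesicular glutamate transporter of excitatory neurons, was measured at 82.7, 92.98 and 95.5 CPM in cortex against 1.01, 0.438 and 0.401 CPM in MGE (log2 fold change -7.12, SE 0.23, edgeR adjusted p = 8.98e-08; -7.75 without MGE library 1). Slc17a7, the other main one, reached 64.3, 70.4 and 70.7 CPM in cortex against 1.09, 0.573 and 1.30 CPM in MGE (log2 fold change -6.10, SE 0.19, edgeR adjusted p = 1.62e-08). Gria2, the AMPA receptor subunit that limits calcium entry, was 2.97-fold higher in cortex, at 370.0, 323 and 390.2 CPM in cortex against 124, 108 and 133 CPM in MGE. Several receptor genes were higher in MGE instead. Grm4, a metabotropic receptor, stood at 14.3, 14.6 and 18.1 CPM in MGE against 0.749, 0.948 and 1.03 CPM in cortex, and the NMDA receptor subunit Grin3a at 12.5, 15.1 and 11.8 CPM in MGE against 1.31, 0.883 and 1.11 CPM in cortex. The kainate receptor subunit Grik3 reached 224, 275 and 247 CPM in MGE against 57.1, 42.4 and 64.4 CPM in cortex (log2 fold change 2.19, SE 0.15, edgeR adjusted p = 9.88e-06). Glutamate receptor genes were therefore found on each side, while the vesicular transporters named for GABA and glutamate lay each on one side.

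Genes of interneuron specification and migration leaned to MGE, but not as a block. Of 37 tested members, 18 were higher in MGE, 7 were higher in cortex and 12 were not called, and the median log2 fold change was 0.39. Lhx6 had the largest excess, followed by Npy, a peptide of cortical interneurons, at 33.3, 30.2 and 74.1 CPM in MGE against 4.55, 2.48 and 3.29 CPM in cortex (log2 fold change 3.73, SE 0.48, edgeR adjusted p = 0.00159). Arl4d, a small GTPase, was measured at 187, 179 and 274 CPM in MGE against 17.7, 12.9 and 23.02 CPM in cortex (log2 fold change 3.58, SE 0.28, edgeR adjusted p = 0.000154). Calb1, a calcium-binding protein, stood at 11.2, 11.5 and 16.5 CPM in MGE against 1.81, 1.14 and 1.77 CPM in cortex (log2 fold change 3.05, SE 0.24, edgeR adjusted p = 4.19e-06). Cdca7, a cell-division-associated gene, was 3.27-fold higher, at 436, 464 and 534 CPM in MGE against 133, 159.8 and 145 CPM in cortex. Of the members higher in cortex, Nxph2, a neurexophilin, had the largest fold, at 4.77, 4.90 and 5.21 CPM in cortex against 0.260, 0.540 and 1.47 CPM in MGE (log2 fold change -2.74, and -3.65 without MGE library 3). Guidance and motility genes were among the others, and 3 of them are given here. Tiam2, a Rac activator, was measured at 264, 247 and 319 CPM in cortex against 36.9, 61.7 and 74.8 CPM in MGE. The ephrin receptor Epha5 stood at 211, 212 and 229.8 CPM in cortex against 33.6, 40.8 and 70.1 CPM in MGE. Nrp1, a semaphorin receptor, stood at 137, 138 and 153 CPM in cortex against 59.1, 53.5 and 56.6 CPM in MGE. No sample of one tissue reached the range of the other for these 9 genes. Most were named for a large called change, and 59.1% of all tested genes did not overlap either.

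The ventral cholinergic and septal genes were mostly higher in MGE. Of 13 tested members, 9 were higher in MGE, 2 were higher in cortex and 2 were not called, with a median of 2.42. Gbx1, a homeobox gene of cholinergic neurons, was measured at 15.3, 6.88 and 9.39 CPM in MGE against 3 counts in all of cortex, a ratio of 327 with a 95% counting interval of 112 to 1588. Zic5 and Ngfr, both higher in cortex, are not restricted to cholinergic cells. Zic5, a zinc finger factor of the dorsal midline, stood at 12.9, 9.25 and 8.43 CPM in cortex against 0.754, 0.641 and 0.434 CPM in MGE. Ngfr, a neurotrophin receptor, was measured at 21.4, 17.5 and 20.1 CPM in cortex against 5.20, 3.68 and 5.18 CPM in MGE. Zic1 did not pass in this fit (log2 fold change 0.76, SE 0.27, edgeR adjusted p = 0.0619), though MGE values of 218, 153 and 110.2 CPM stood beside 113, 88.5 and 82.4 CPM in cortex, and it passed with DESeq2 (adjusted p = 0.0368) and limma-voom (adjusted p = 0.0213).

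Markers of the regions that border the MGE were looked at because a dissection can carry them. Among striatal and lateral eminence genes, of 25 tested members, 11 were higher in MGE, 4 were higher in cortex and 10 were not called, and the summed level of the list was 887 to 1213 CPM in MGE and 879 to 1045 CPM in cortex. Six3, a factor of striatal precursors whose exons overlap Six3os1, reached 37.5, 42.96 and 41.6 CPM in MGE against 2.28, 0 and 1.92 CPM in cortex (log2 fold change 4.86, SE 0.80, edgeR adjusted p = 0.00617; 4.26 without cortex library 2, which held none, and 5.45 without cortex library 1). Rxrg, a retinoid receptor of the striatum, was measured at 0.728, 3.57 and 2.41 CPM in MGE against 0.187, 0.0981 and 0.0739 CPM in cortex. Tac1, the substance P gene, stood at 1.61, 4.05 and 3.07 CPM in MGE against 0.343, 0.196 and 0.443 CPM in cortex. MGE library 1 held the least of Rxrg and Tac1 of its group. Meis2 and Bcl11b, the most abundant members, were not called and overlapped, though Bcl11b passed without MGE library 1 (adjusted p = 0.0263) or cortex library 3 (adjusted p = 0.0196). Ppp1r1b, the DARPP-32 gene of mature striatal neurons, was instead higher in cortex, at 23.2, 23.5 and 34.3 CPM in cortex against 0.312, 0.540 and 0.735 CPM in MGE. Of 20 hypothalamic and preoptic markers, 13 had too few counts to be tested, and of the other 7, 3 were higher in MGE, 1 higher in cortex and 3 not called. Nkx2-3 was one of the 3, at 17.4, 32.6 and 17.3 CPM in MGE against 1.40, 1.31 and 0.517 CPM in cortex, while Foxd1, a forkhead factor, was higher in cortex at 12.2, 7.55 and 5.65 CPM in cortex against 1.66, 1.79 and 2.47 CPM in MGE. The part of neighbouring tissue in the MGE levels was not tested.

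Oligodendrocyte precursor genes leaned to MGE without exception among those called. Of 13 tested members, 11 were higher in MGE, 0 were higher in cortex and 2 were not called, with a median log2 fold change of 1.44. Gpr17, a receptor of committed precursors whose exons overlap Lims2, was measured at 8.42, 4.92 and 5.65 CPM in MGE against 1 count in all of cortex, a ratio of 585 with a 95% counting interval of 105 to 23126. Sox10, which specifies the lineage, reached 2.73, 1.42 and 2.64 CPM in MGE against 2 counts in cortex, a ratio of 103 with an interval of 28.3 to 859. The list also holds genes that progenitors at large express, such as Ptprz1 and Dll3. Ptprz1, a receptor phosphatase, reached 577, 555 and 489 CPM in MGE against 260.1, 236 and 254 CPM in cortex (log2 fold change 1.11, SE 0.082, edgeR adjusted p = 2.49e-06). Dll3, a Notch ligand, was measured at 93.5, 112 and 104 CPM in MGE against 20.7, 28.9 and 24.4 CPM in cortex (log2 fold change 2.06, SE 0.12, edgeR adjusted p = 1.01e-06). Neither group of genes overlapped between the tissues.

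**Figure D3:**
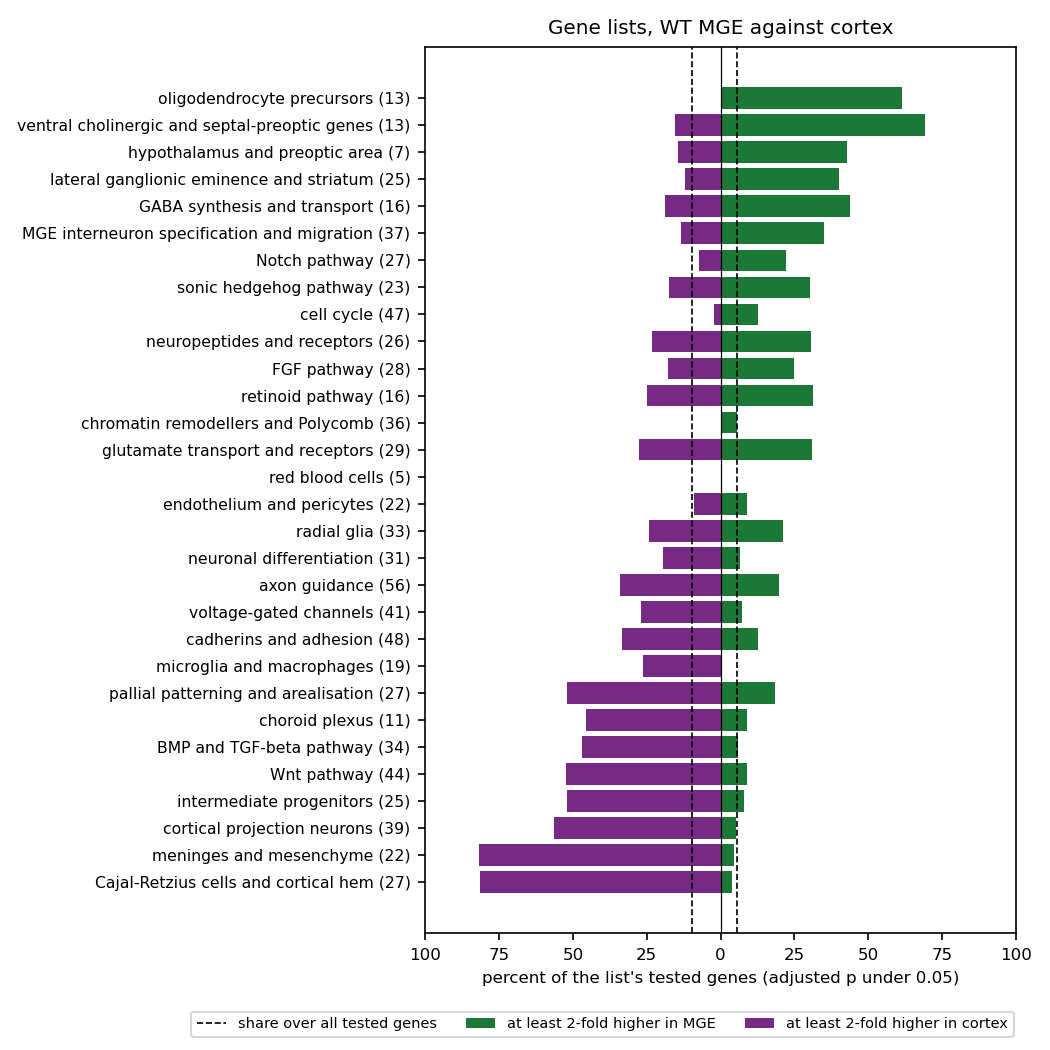
Share of the tested members of each gene list (number in brackets) that were at least 2-fold higher in MGE (green, to the right) or in cortex (purple, to the left) at an adjusted p under 0.05. Dashed lines give the shares over all tested genes, 5.46% for MGE and 9.74% for cortex, and the lists run from oligodendrocyte precursors (8 of 13 in MGE, 0 in cortex) at the top to Cajal-Retzius cells and cortical hem (1 of 27 in MGE, 22 in cortex) at the bottom.

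The cortical lineage was marked at each step. For intermediate progenitors, of 25 tested members, 4 were higher in MGE, 15 were higher in cortex and 6 were not called, with a median log2 fold change of -1.07. Nhlh2, a bHLH factor of newborn neurons, was measured at 55.2, 65.8 and 45.6 CPM in cortex against 0.286, 0.135 and 0.434 CPM in MGE (log2 fold change -7.58, SE 0.26, edgeR adjusted p = 5.73e-08). Neurod1, which acts after Neurog2 and shares exon sequence with Cerkl, stood at 68.5, 89.2 and 57.8 CPM in cortex against 0.286, 0.337 and 0.267 CPM in MGE (log2 fold change -7.91, SE 0.23, edgeR adjusted p = 1.62e-08). The 4 members higher in MGE (Dll3, Mfng, Insm1 and Dll1) belong to Notch signalling or to the exit from the cell cycle in any progenitor. Insm1, a zinc finger factor of basal progenitors, reached 283, 407 and 408 CPM in MGE against 188, 249 and 248 CPM in cortex (log2 fold change 0.68, SE 0.17, edgeR adjusted p = 0.0109). Mfng, which modifies Notch, reached 181, 164 and 216 CPM in MGE against 84.97, 93.5 and 85.3 CPM in cortex (log2 fold change 1.09, SE 0.10, edgeR adjusted p = 1.22e-05). Dll1 was called only narrowly (log2 fold change 0.36, SE 0.12, edgeR adjusted p = 0.0296), and no longer without MGE library 1 or 2 or cortex library 1 or 3 (log2 fold changes 0.26 to 0.36).

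For projection neurons, of 39 tested members, 8 were higher in MGE, 24 were higher in cortex and 7 were not called, with a median of -2.02. Neurod2, a bHLH factor of these neurons, was measured at 281, 317 and 371 CPM in cortex against 0.520, 1.21 and 2.77 CPM in MGE (log2 fold change -7.80, SE 0.47, edgeR adjusted p = 9.61e-05; -8.59 without MGE library 3, which held the most of its group). Zbtb18, a repressor needed for cortical neuron production, had the highest mean level of the list over both tissues, at 894, 981 and 1049.6 CPM in cortex against 193, 192 and 197 CPM in MGE (log2 fold change -2.33, SE 0.08, edgeR adjusted p = 1.41e-08). The 8 members higher in MGE included upper-layer genes that interneurons and progenitors also express. Cux1, a homeodomain factor, reached 238, 299 and 260.5 CPM in MGE against 136, 136 and 128 CPM in cortex (log2 fold change 1.00, SE 0.088, edgeR adjusted p = 8.85e-06). Pou3f2, a POU factor, reached 138, 256 and 191 CPM in MGE against 53.99, 56.6 and 82.7 CPM in cortex (log2 fold change 1.60, SE 0.28, edgeR adjusted p = 0.00529). Cux2 and Rorb were called with adjusted p = 0.0174 and 0.0211, and each lost the call in edgeR without MGE library 2 or cortex library 1, Rorb also without MGE library 1.

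Genes of Cajal-Retzius cells, the first neurons of the cortical surface, and of the hem at the cortical edge were higher in cortex in 24 of 27 tested members, with a median log2 fold change of -3.57. Reln, the secreted layering signal of Cajal-Retzius cells, was measured at 273, 282 and 221 CPM in cortex against 16.7, 17.6 and 31.2 CPM in MGE (log2 fold change -3.57, SE 0.28, edgeR adjusted p = 0.000161). Rspo3, an R-spondin that strengthens Wnt signals, reached 42.4, 27.2 and 29.6 CPM in cortex against 0.156, 0.0674 and 0.0334 CPM in MGE (log2 fold change -8.44, SE 0.34, edgeR adjusted p = 1.04e-07; -9.26 without MGE library 1). The hem ligand Wnt8b stood at 22.1, 14.7 and 9.53 CPM in cortex against 0.234, 0.0674 and 0 CPM in MGE (log2 fold change -7.08, and -8.69 without MGE library 1). Cortex library 1 held the most Rspo3 and Wnt8b of its group, and all cortex libraries lay above all MGE libraries for the 3 genes. Ebf1, one of the 2 members higher in MGE and also a striatal gene, was measured at 12.3, 47.9 and 36.8 CPM in MGE against 5.33, 4.68 and 3.29 CPM in cortex (log2 fold change 2.86, SE 0.56, edgeR adjusted p = 0.00922), and it lost the call without cortex library 3 (adjusted p = 0.0547).

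Genes that pattern the cortex into areas followed the same division, with 16 of 27 higher in cortex, 6 higher in MGE and 5 not called (median -1.51). Those higher in MGE included Efna5, a repellent ephrin of area borders, at 29.2, 41.5 and 28.8 CPM in MGE against 5.43, 4.28 and 2.96 CPM in cortex (log2 fold change 2.96, SE 0.23, edgeR adjusted p = 1.58e-05). Etv1, an ETS factor, reached 69.04, 78.4 and 107 CPM in MGE against 13.01, 10.6 and 16.1 CPM in cortex (log2 fold change 2.68, SE 0.21, edgeR adjusted p = 3.44e-05). Prox1, a homeobox factor of hippocampal granule cells and interneurons, was measured at 45.1, 35.9 and 45.1 CPM in MGE against 9.86, 10.3 and 3.40 CPM in cortex (log2 fold change 2.41, SE 0.40, edgeR adjusted p = 0.00411). For Fgf15, a growth factor of forebrain progenitors, 11.7, 10.8 and 4.31 CPM in MGE against 1.87, 0.392 and 0.222 CPM in cortex were measured (log2 fold change 3.40, SE 0.80, edgeR adjusted p = 0.0145; 4.81 without cortex library 1, the highest of its group). The groups did not overlap for these 4 genes.

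Proliferation genes were higher in MGE as a group, by small amounts. Of 47 tested members, 39 were higher in MGE, 3 were higher in cortex and 5 were not called, with a median log2 fold change of 0.66, although only 6 passed 2-fold in MGE and 1 in cortex. Mki67, present in dividing cells, was measured at 971, 1102 and 964 CPM in MGE against 554, 570.1 and 565 CPM in cortex (log2 fold change 0.85, SE 0.075, edgeR adjusted p = 8.84e-06). Top2a, a topoisomerase of G2 and mitosis, stood at 1367, 1461 and 1321 CPM in MGE against 670.2, 729 and 728 CPM in cortex (log2 fold change 0.96, SE 0.073, edgeR adjusted p = 2.80e-06). Rrm2, which makes deoxynucleotides for S phase, reached 472, 501 and 453 CPM in MGE against 138, 181 and 139 CPM in cortex (log2 fold change 1.64, SE 0.11, edgeR adjusted p = 1.55e-06). Among the D-type cyclins and their kinases, Ccnd1 was 4.24-fold higher in MGE, at 354, 249 and 170.3 CPM in MGE against 63.7, 53.9 and 64.6 CPM in cortex (log2 fold change 2.09, SE 0.28, edgeR adjusted p = 0.00173). Cdk6 was 3.10-fold higher, whereas Ccnd2 was higher in cortex, at 984, 1049.9 and 858 CPM in cortex against 539.5, 734 and 687 CPM in MGE (log2 fold change -0.56, SE 0.12, edgeR adjusted p = 0.00373). The other 2 members higher in cortex were inhibitors of cyclin-dependent kinases. Cdkn1c, an imprinted inhibitor, was measured at 256, 231 and 217 CPM in cortex against 117, 98.9 and 90.1 CPM in MGE (log2 fold change -1.20, SE 0.10, edgeR adjusted p = 8.19e-06). Cdkn1a had an adjusted p of 0.0191 that did not hold without MGE library 1 or cortex library 1 (0.0607 and 0.0742).

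Genes of radial glia, the stem cells of both tissues, were called in both directions. Of 33 tested members, 12 were higher in MGE, 12 were higher in cortex and 9 were not called, and the median was 0.043. Higher in MGE were the SoxB factors of neural progenitors Sox1 and Sox2. Sox1 stood at 369, 559.5 and 517 CPM in MGE against 66.4, 83.3 and 76.2 CPM in cortex (log2 fold change 2.68, SE 0.17, edgeR adjusted p = 7.41e-06). Sox2 stood at 387, 571 and 511 CPM in MGE against 148, 182 and 139.7 CPM in cortex (log2 fold change 1.64, SE 0.16, edgeR adjusted p = 8.50e-05). Ednrb, an endothelin receptor of progenitors, was 2.78-fold higher in MGE. Higher in cortex was Aldoc, a glycolytic enzyme of glia, at 322, 353 and 298 CPM in cortex against 8.79, 9.10 and 12.3 CPM in MGE (log2 fold change -5.02, SE 0.14, edgeR adjusted p = 1.16e-08). Hopx, a homeodomain-only protein of outer radial glia, was measured at 23.1, 13.8 and 23.8 CPM in cortex against 0.858, 0.607 and 0.301 CPM in MGE (log2 fold change -5.06, SE 0.35, edgeR adjusted p = 6.89e-06). Vim, the intermediate filament of radial glia, was among the most abundant members and was not called, at 1526, 1216 and 1093 CPM in MGE against 1389.6, 1466 and 1191 CPM in cortex. The list thus held Aldoc, 32.3-fold higher in cortex, beside Sox1, 6.400-fold higher in MGE.

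Pan-neuronal genes were called as often in one tissue as in the other. Of 31 tested members, 11 were higher in MGE, 11 were higher in cortex and 9 were not called, with a median of 0.027, and 2 in MGE and 6 in cortex passed 2-fold. Tubb3, the neuronal tubulin, was measured at 1469, 1513 and 1889 CPM in MGE against 1138, 1179 and 1238 CPM in cortex (log2 fold change 0.45, SE 0.10, edgeR adjusted p = 0.00297). Sox11, a factor of newborn neurons, stood at 1248, 1800.2 and 1631 CPM in MGE against 886, 936 and 1022 CPM in cortex (log2 fold change 0.72, SE 0.13, edgeR adjusted p = 0.00149). Both tissues differed in the neurofilament genes Nefl and Nefm, which neighbour each other and overlap in exons. Nefl reached 17.9, 22.8 and 18.98 CPM in MGE against 6.49, 4.77 and 3.84 CPM in cortex, and Nefm 12.5, 19.9 and 15.1 CPM in MGE against 8.48, 6.80 and 7.35 CPM in cortex. In the other direction, Cntn2, an adhesion molecule of the first cortical axons, was measured at 523, 537 and 590.3 CPM in cortex against 14.5, 30.2 and 32.4 CPM in MGE (log2 fold change -4.43, SE 0.33, edgeR adjusted p = 0.000168). Rbfox3, the NeuN antigen, was measured at 48.4, 58.5 and 57.4 CPM in cortex against 9.72, 9.71 and 13.03 CPM in MGE (log2 fold change -2.34, SE 0.14, edgeR adjusted p = 4.66e-07). MGE library 1 held less Cntn2 and Sox11 than the other MGE libraries, and no group overlapped in these 6 genes.

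In the sonic hedgehog pathway Shh, Ptch1 and Hhip were higher in MGE, and the co-receptors Gas1, Cdon and Boc were higher in cortex. Of 23 tested members, 11 were higher in MGE, 5 were higher in cortex and 7 were not called, with a median log2 fold change of 0.26. Shh itself was measured at 36.8, 30.7 and 17.9 CPM in MGE against 0, 0.0981 and 0.0739 CPM in cortex (log2 fold change 8.90, SE 0.52, edgeR adjusted p = 5.45e-06; 8.28 without cortex library 1 and 9.55 without cortex library 2), and MGE library 3 held the least of its group. Ptch1, its receptor, is not named by the rule and was chosen after its values were seen. It stood at 101, 108 and 68.7 CPM in MGE against 11.4, 8.40 and 10.5 CPM in cortex (log2 fold change 3.20, SE 0.20, edgeR adjusted p = 7.27e-06). Hhip, a membrane protein that binds and limits Shh, reached 12.4, 27.5 and 8.15 CPM in MGE against 0.125, 0.196 and 0.0370 CPM in cortex (log2 fold change 6.99, SE 0.71, edgeR adjusted p = 0.000228; 6.34 without MGE library 2). These co-receptors help cells bind Shh. Gas1 was measured at 253, 338 and 281 CPM in cortex against 7.46, 9.78 and 8.02 CPM in MGE (log2 fold change -5.11, SE 0.15, edgeR adjusted p = 1.62e-08). Cdon reached 369, 434 and 396 CPM in cortex against 20.2, 21.4 and 19.3 CPM in MGE (log2 fold change -4.30, SE 0.092, edgeR adjusted p = 5.27e-10). Boc reached 83.97, 96.5 and 86.5 CPM in cortex against 9.98, 13.3 and 7.89 CPM in MGE (log2 fold change -3.10, SE 0.17, edgeR adjusted p = 1.83e-06). Gli2, the main activator of the pathway, was also higher in cortex, at 42.8, 50.4 and 37.3 CPM in cortex against 11.5, 16.6 and 5.28 CPM in MGE (log2 fold change -1.97, SE 0.40, edgeR adjusted p = 0.00915). MGE library 2 held the most Hhip, Boc and Gli2 of its group, and no gene named here overlapped between tissues.

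The Wnt list leaned to cortex. Of 44 tested members, 8 were higher in MGE, 28 were higher in cortex and 8 were not called, with a median log2 fold change of -1.27, and 23 of those in cortex were at least 2-fold higher. Wnt3a, the hem ligand that expands the hippocampal field, was measured at 7.74, 2.32 and 2.29 CPM in cortex against 3 counts in all of MGE, a ratio of 139 with a 95% counting interval of 47.1 to 676. Rspo2, a second R-spondin, reached 21.8, 6.41 and 8.54 CPM in cortex against 0.156, 0.135 and 0.200 CPM in MGE (log2 fold change -6.20, SE 0.63, edgeR adjusted p = 0.000161; -5.50 without cortex library 1, which held the most). Receptors were among the members higher in MGE. Fzd5, a frizzled receptor, was measured at 11.3, 15.1 and 10.2 CPM in MGE against 1.59, 0.490 and 0.998 CPM in cortex (log2 fold change 3.56, SE 0.36, edgeR adjusted p = 4.71e-05). Lgr4, an R-spondin receptor, stood at 20.4, 31.4 and 14.7 CPM in MGE against 6.68, 4.32 and 4.36 CPM in cortex (log2 fold change 2.11, SE 0.30, edgeR adjusted p = 0.000777). Wnt7a, a ligand of progenitors, was 2.22-fold higher in MGE, at 66.2, 80.3 and 77.2 CPM in MGE against 29.2, 36.9 and 34.7 CPM in cortex (log2 fold change 1.15, SE 0.11, edgeR adjusted p = 1.38e-05). The secreted antagonist Sfrp1, one of the most abundant members, stood at 255, 301 and 323 CPM in cortex against 172, 227 and 160.2 CPM in MGE (log2 fold change -0.65, SE 0.14, edgeR adjusted p = 0.00464). The tissues did not overlap in any of these. Cortex library 1 held the most Wnt3a and Rspo2 of its group and the least Sfrp1. The meninges list, summed, stood at 1355, 819 and 839 CPM in cortex libraries 1 to 3, and its part in the Wnt genes was not tested.

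The list of BMP and TGF-beta genes leaned to cortex. Of 34 tested members, 4 were higher in MGE, 20 were higher in cortex and 10 were not called, with a median of -0.87. Bmp7 was measured at 37.7, 17.8 and 21.95 CPM in cortex against 1.40, 0.776 and 1.44 CPM in MGE (log2 fold change -4.41, SE 0.36, edgeR adjusted p = 4.19e-05). Bmp6, whose exons overlap Txndc5, was measured at 14.5, 4.90 and 7.43 CPM in cortex against 0.182, 0.540 and 0.936 CPM in MGE (log2 fold change -4.05, SE 0.62, edgeR adjusted p = 0.00132; -4.67 without MGE library 3). Msx1, a homeobox gene that BMP is known to induce, reached 11.3, 5.17 and 9.20 CPM in cortex against 0.312, 0.0674 and 0.100 CPM in MGE (log2 fold change -5.62, SE 0.50, edgeR adjusted p = 1.87e-05; -6.61 without MGE library 1). Cortex library 1 held the most of each of the 3 genes and cortex library 2 the least. The choroid plexus list, summed, stood at 1754, 28.3 and 1346 CPM in cortex libraries 1 to 3, and the meninges list at 1355, 819 and 839 CPM, and their part in the BMP genes was not tested. Those higher in MGE included the ligand Tgfb3 at 18.7, 31.5 and 43.3 CPM in MGE against 7.61, 6.90 and 8.09 CPM in cortex (log2 fold change 2.05, SE 0.29, edgeR adjusted p = 0.00098). The receptor Acvr2b stood at 48.8, 39.1 and 34.7 CPM in MGE against 19.03, 21.1 and 18.3 CPM in cortex (log2 fold change 1.07, SE 0.13, edgeR adjusted p = 8.13e-05).

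FGF genes were called in both directions. Of 28 tested, 12 were higher in MGE, 7 higher in cortex and 9 not called, beside 24.9% and 24.6% of all tested genes. The cortex count was near its share. The ligands Fgf15 and Fgf3 were higher in MGE, and Fgf3 rested on 63 counts in MGE and none in cortex, at least 6.47-fold higher against the floor of 3 counts per library. Fgf18, a ligand of the Fgf8 subfamily, was higher in cortex, at 4.37, 2.98 and 4.55 CPM in cortex against 0.0780, 0.641 and 0.200 CPM in MGE (log2 fold change -3.73, SE 0.57, edgeR adjusted p = 0.000523; -4.86 without MGE library 2). Of the ETS readouts of FGF signalling, Etv1 was higher in MGE (values above), while Etv4 and Etv5 were higher in cortex. Etv5 stood at 30.5, 26.7 and 37.2 CPM in cortex against 10.7, 9.51 and 12.8 CPM in MGE (log2 fold change -1.51, SE 0.15, edgeR adjusted p = 2.34e-05). Etv4 stood at 4.77, 2.29 and 3.55 CPM in cortex against 1.118, 0.809 and 1.60 CPM in MGE (log2 fold change -1.59, SE 0.36, edgeR adjusted p = 0.00420). Flrt1, an FGF receptor partner, was 7.67-fold higher in cortex.

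The Notch list leaned to MGE, with Hes and Hey targets called in both directions. Of 27 tested, 13 were higher in MGE, 5 higher in cortex and 9 not called, beside 24.9% and 24.6% of all tested genes. The median log2 fold change was 0.16. Jag1, a ligand, was measured at 60.3, 61.00 and 47.3 CPM in MGE against 15.7, 11.02 and 11.3 CPM in cortex (log2 fold change 2.15, SE 0.16, edgeR adjusted p = 5.22e-06). Notch1, the main receptor of progenitors, stood at 536, 582 and 400.3 CPM in MGE against 223, 240.0 and 205 CPM in cortex (log2 fold change 1.19, SE 0.13, edgeR adjusted p = 0.000123). Among the targets, Hes5 was higher in MGE, at 171, 158 and 131 CPM in MGE against 53.7, 65.4 and 48.3 CPM in cortex (log2 fold change 1.46, SE 0.13, edgeR adjusted p = 2.91e-05). Hes1 was higher in cortex, at 42.8, 56.4 and 41.6 CPM in cortex against 25.01, 30.5 and 22.7 CPM in MGE (log2 fold change -0.85, SE 0.15, edgeR adjusted p = 0.00104), as were Hey1 and Hey2. Hey1 stood at 59.6, 78.7 and 61.7 CPM in cortex against 36.96, 30.1 and 26.7 CPM in MGE (log2 fold change -1.09, SE 0.14, edgeR adjusted p = 0.000234). Hey2 stood at 11.2, 10.95 and 10.01 CPM in cortex against 3.59, 3.74 and 6.21 CPM in MGE (log2 fold change -1.25, SE 0.22, edgeR adjusted p = 0.000931). None of these 6 genes overlapped, beside 59.1% of all tested genes without overlap, and none but Jag1 differed by more than 2.75-fold on mean CPM.

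Retinoid genes were called in equal numbers, 6 higher in MGE and 6 in cortex of 16, beside 24.9% and 24.6% of all tested genes. The receptor Rxra stood at 51.00, 56.01 and 42.8 CPM in MGE against 21.6, 21.1 and 19.4 CPM in cortex (log2 fold change 1.27, SE 0.11, edgeR adjusted p = 8.15e-06). Aldh1a2, which makes retinoic acid in meninges, stood at 12.1, 6.28 and 7.02 CPM in cortex against 0.182, 0.776 and 0.0668 CPM in MGE (log2 fold change -4.65, SE 0.65, edgeR adjusted p = 0.000816; -5.99 without MGE library 2). Rarg, a second receptor, was 4.18-fold higher in cortex, at 10.7, 10.005 and 10.2 CPM in cortex against 2.60, 2.36 and 2.44 CPM in MGE (log2 fold change -2.06, SE 0.17, edgeR adjusted p = 5.29e-06). Crabp2, a binding protein of retinoic acid that meninges also express, reached 77.4, 33.2 and 37.9 CPM in MGE against 12.4, 12.6 and 14.1 CPM in cortex (log2 fold change 1.93, SE 0.35, edgeR adjusted p = 0.00603). The meningeal retinoid genes named here lay on both sides.

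Guidance cues and receptors differed widely but in both directions. Of 56 tested, 19 were higher in MGE, 23 higher in cortex and 14 not called, beside 24.9% and 24.6% of all tested genes. Ntn1, a secreted attractant, was measured at 208, 289.9 and 156 CPM in MGE against 5.71, 4.09 and 2.77 CPM in cortex (log2 fold change 5.69, SE 0.37, edgeR adjusted p = 8.99e-05), the widest difference of this list, with the least in MGE library 3. Plxnc1, a semaphorin receptor, reached 85.2, 114 and 82.7 CPM in MGE against 32.2, 25.2 and 23.9 CPM in cortex (log2 fold change 1.79, SE 0.15, edgeR adjusted p = 2.83e-05). Ephb1, an ephrin receptor, reached 129, 172 and 118 CPM in MGE against 44.9, 55.2 and 30.1 CPM in cortex (log2 fold change 1.68, SE 0.26, edgeR adjusted p = 0.00270). On the cortex side, Cxcl12, the chemokine of meninges and intermediate progenitors that attracts interneurons and Cajal-Retzius cells, stood at 103, 66.4 and 75.8 CPM in cortex against 4.73, 3.24 and 3.84 CPM in MGE (log2 fold change -4.36, SE 0.21, edgeR adjusted p = 1.05e-06). The ephrin Efna3 reached 27.6, 26.1 and 29.6 CPM in cortex against 2.83, 4.01 and 4.11 CPM in MGE (log2 fold change -2.93, SE 0.16, edgeR adjusted p = 3.17e-07). The receptor Epha7 reached 56.6, 46.5 and 48.7 CPM in cortex against 9.59, 8.16 and 11.3 CPM in MGE (log2 fold change -2.38, SE 0.13, edgeR adjusted p = 3.48e-07). Each of these 6 genes separated the tissues without overlap, as did 59.1% of all tested genes.

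Adhesion genes leaned to cortex. Of 48 tested, 9 were higher in MGE, 19 higher in cortex and 20 not called, beside 24.9% and 24.6% of all tested genes. Nrxn3, a presynaptic neurexin, was the most different in MGE, at 111, 125 and 156 CPM in MGE against 8.55, 4.97 and 7.91 CPM in cortex (log2 fold change 4.19, SE 0.22, edgeR adjusted p = 7.26e-06). The cadherin Cdh22 followed at 33.7, 33.4 and 24.6 CPM in MGE against 1.62, 2.94 and 2.48 CPM in cortex (log2 fold change 3.71, SE 0.22, edgeR adjusted p = 1.15e-06). In cortex, Cdh13, a cadherin without a cytoplasmic part, was measured at 65.2, 54.5 and 80.5 CPM in cortex against 5.87, 5.53 and 7.02 CPM in MGE (log2 fold change -3.44, SE 0.16, edgeR adjusted p = 2.73e-07). Opcml, an adhesion molecule of the IgLON family, was measured at 16.3, 16.5 and 16.1 CPM in cortex against 2.16, 4.52 and 3.71 CPM in MGE (log2 fold change -2.24, SE 0.24, edgeR adjusted p = 3.50e-05). Lsamp, of the same family, lay on the MGE side at 12.5, 12.7 and 10.7 CPM in MGE against 3.56, 2.65 and 2.73 CPM in cortex (log2 fold change 2.00, SE 0.18, edgeR adjusted p = 1.14e-05). Cdh2, the N-cadherin of all neural progenitors, was not called, with 346, 390.4 and 363 CPM in MGE against 338, 371 and 358 CPM in cortex (log2 fold change 0.043, SE 0.075, edgeR adjusted p = 0.661).

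Ion channels showed the largest differences on the cortex side. Of 41 tested, 13 were higher in MGE, 17 higher in cortex and 11 not called, beside 24.9% and 24.6% of all tested genes. Past 2-fold were 3 in MGE and 11 in cortex, beside 5.46% and 9.74%. Cacna2d1, a calcium channel subunit, was measured at 82.4, 86.9 and 93.7 CPM in cortex against 5.54, 6.24 and 6.62 CPM in MGE (log2 fold change -3.84, SE 0.10, edgeR adjusted p = 2.87e-09). Kcna1, a delayed rectifier, stood at 13.48, 17.2 and 17.6 CPM in cortex against 0.208, 0.135 and 0.468 CPM in MGE (log2 fold change -5.90, SE 0.32, edgeR adjusted p = 3.41e-07; -6.48 without MGE library 3). Kcnc2, a potassium channel of fast-spiking interneurons, was 3.13-fold higher in MGE, at 7.38, 13.8 and 15.2 CPM in MGE against 3.56, 3.14 and 4.91 CPM in cortex (log2 fold change 1.65, SE 0.29, edgeR adjusted p = 0.00127), and Scn9a, a sodium channel, 4.29-fold higher. Scn3a, the embryonic sodium channel, stood at 61.03, 67.7 and 68.2 CPM in MGE against 38.9, 38.7 and 44.4 CPM in cortex (log2 fold change 0.69, SE 0.087, edgeR adjusted p = 0.000104). For peptides and their receptors, of 26 tested members, 8 were higher in MGE, 7 were higher in cortex and 11 were not called, shares near the 24.9% and 24.6% of all tested genes. Past 2-fold were 8 in MGE and 6 in cortex, beside 5.46% and 9.74%. The median absolute log2 fold change of these members was 2.06, beside 0.35 over all tested genes. Their log2 fold changes ran from -7.03 to 7.37, and Npy (values above) was among those higher in MGE. Sstr2, a somatostatin receptor of newborn cortical neurons, was measured at 80.5, 99.9 and 85.3 CPM in cortex against 0.806, 0.843 and 2.64 CPM in MGE (log2 fold change -5.98, SE 0.41, edgeR adjusted p = 9.03e-05; -6.74 without MGE library 3). Cck, a peptide of cortical neurons, was measured at 10.7, 9.42 and 9.13 CPM in cortex against 0.208, 0.236 and 0.468 CPM in MGE (log2 fold change -5.01, SE 0.30, edgeR adjusted p = 5.43e-07).

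Chromatin genes differed little. Of 36 tested members, 18 were higher in MGE, 3 were higher in cortex and 15 were not called, with a median of 0.23, and only 2 were at least 2-fold different. Those were Chd5 and Cbx7. Chd5, a neuronal remodeller, was measured at 36.8, 45.96 and 59.8 CPM in MGE against 17.2, 14.3 and 15.7 CPM in cortex (log2 fold change 1.59, SE 0.17, edgeR adjusted p = 8.26e-05). Cbx7, a Polycomb subunit whose exons overlap Apobec3, stood at 9.05, 10.6 and 7.38 CPM in MGE against 3.96, 5.85 and 2.29 CPM in cortex (adjusted p = 0.0112, and 0.0519 without MGE library 2). Dnmt1, the maintenance DNA methyltransferase, was 1.90-fold higher in MGE, at 412, 434 and 422 CPM in MGE against 200.4, 253 and 212 CPM in cortex (log2 fold change 0.93, SE 0.091, edgeR adjusted p = 1.82e-05). Chd2, the gene mutated in the other animals of the series, was chosen for that reason and not by the rule. It stood at 157, 167 and 180.3 CPM in MGE against 148, 156 and 149 CPM in cortex and was not called (log2 fold change 0.16, SE 0.073, edgeR adjusted p = 0.101).

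Cells from outside the neural tissue were not shared evenly. Of 22 meningeal and mesenchymal genes, 18 were higher in cortex and 2 in MGE. Over all tested genes the shares were 24.6% and 24.9%, and they apply to the other lists of these cells as well. Dcn, a matrix proteoglycan of meninges, was measured at 57.96, 30.7 and 41.9 CPM in cortex against 0.754, 0.843 and 0.835 CPM in MGE (log2 fold change -5.75, SE 0.28, edgeR adjusted p = 9.48e-07). Lum, its neighbour on chromosome 10, reached 39.3, 21.7 and 28.9 CPM in cortex against 0.338, 1.18 and 0.334 CPM in MGE (log2 fold change -5.63, and -6.47 without MGE library 2). Of 11 choroid plexus genes, 5 were higher in cortex and 1 in MGE. The list was high in cortex libraries 1 and 3, summed at 1754 and 1346 CPM, and low in cortex library 2, at 28.3 CPM. Ttr, the transthyretin of the plexus, stood at 1471, 0.425 and 1143 CPM in the cortex libraries and 0.702, 3.61 and 5.35 CPM in MGE and was not called (edgeR adjusted p = 0.0781), and cortex library 2 lay below every MGE library. Without that library Ttr passed (adjusted p = 0.00384), as it did with DESeq2 (adjusted p = 0.000106). Macrophage genes were higher in cortex in 8 of 19 tested and in MGE in 0. Mrc1, a marker of macrophages at the brain border, reached 35.5, 17.6 and 21.4 CPM in cortex against 0.988, 0.776 and 1.24 CPM in MGE (log2 fold change -4.63, SE 0.32, edgeR adjusted p = 6.89e-06). Csf1r, which all microglia carry, was not called, at 27.4, 15.3 and 14.9 CPM in cortex against 14.4, 13.1 and 16.5 CPM in MGE. Endothelial and pericyte genes were called in both directions (3 and 5 of 22, beside 24.9% and 24.6% of all tested genes). The red cell genes were not called in any of 5 tested by edgeR, and Hbb-y, an embryonic globin, stood at 1042, 278 and 256 CPM in MGE, high in library 1, against 247, 337 and 406 CPM in cortex.

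Genes with large differences often lay beside each other. Of the 145 genes at least 8-fold higher in MGE, 23 (15.9%) had another such gene within 50 kb, against 1.39% of the other tested genes (194 of 13998) that had one of the 145 so near. In cortex the shares were 14.5% (50 of 346) and 3.32% (458 of 13797). The pairs included known clusters (Dlx1 and Dlx2, Dlx5 and Dlx6, Olig1 and Olig2, Dmrt1 and Dmrt3, Wnt3a and Wnt9a) and noncoding genes next to a regulator, chosen here after their values were seen. E030019B13Rik (chromosome 12, 56490428 to 56529420, minus strand), 2537 bases from Nkx2-1, was measured at 236, 174 and 214 CPM in MGE against 0.250, 0 and 0.296 CPM in cortex (log2 fold change 10.16, SE 0.34, edgeR adjusted p = 5.60e-07; 9.56 without cortex library 2). AI606473 (chromosome 3, 154330821 to 154334254, plus strand), whose start is divergent from that of Lhx8, reached 80.8, 68.3 and 45.8 CPM in MGE against 0.0936, 0.0654 and 0.0370 CPM in cortex (log2 fold change 9.84, SE 0.37, edgeR adjusted p = 3.41e-07). In cortex, Paupar beside Pax6 had a log2 fold change of -4.67, SE 0.65 (-4.04 without MGE library 1). Pax6os1, whose span overlaps Pax6, had 156 counts in cortex and none in MGE, at least 18.8-fold higher in cortex against the floor of 3 counts per library. Emx2 and Emx2os overlap in exons, so that without a strand setting their counts are not independent, whereas the Dlx6 and Dlx6os1 pair and the Pax6 and Pax6os1 pair overlap in span and not in exons. Exons of another annotated gene overlapped those of 30 of the 258 genes that the naming rule picked, among them Nkx6-2, Sp9, Shh, Tiam2, Gabrb1, Ppp1r1b, Ccnd2, Scn9a and Csf1r, and reads of such pairs cannot be told apart here.

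The HET libraries gave a second, separate comparison of the same tissues. There, 3689 of 14229 autosomal genes (25.9%) were called, 1605 higher in MGE and 2084 higher in cortex. Of these calls, 3208 were called in the same direction in WT (45.8% of the WT calls and 87.0% of the HET calls) and 1 in the opposite direction. Of 2087 genes called at least 2-fold in WT and tested in HET, 2073 had the same sign in HET and 1704 passed there. Across 13972 genes the log2 fold changes of WT and HET had a Pearson r of 0.938, where genes are not independent replicates and no library was shared. The gene called in opposite directions, chosen after its values were seen, was Galnt14, a glycosyltransferase, with a log2 fold change of 1.06 (SE 0.38, edgeR adjusted p = 0.0434) in WT and -0.95 (SE 0.30, adjusted p = 0.0460) in HET. The WT call of Galnt14 did not hold without MGE library 1 or 3 or without cortex library 2 or 3 (adjusted p 0.0822 to 0.152).

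**Figure D4:**
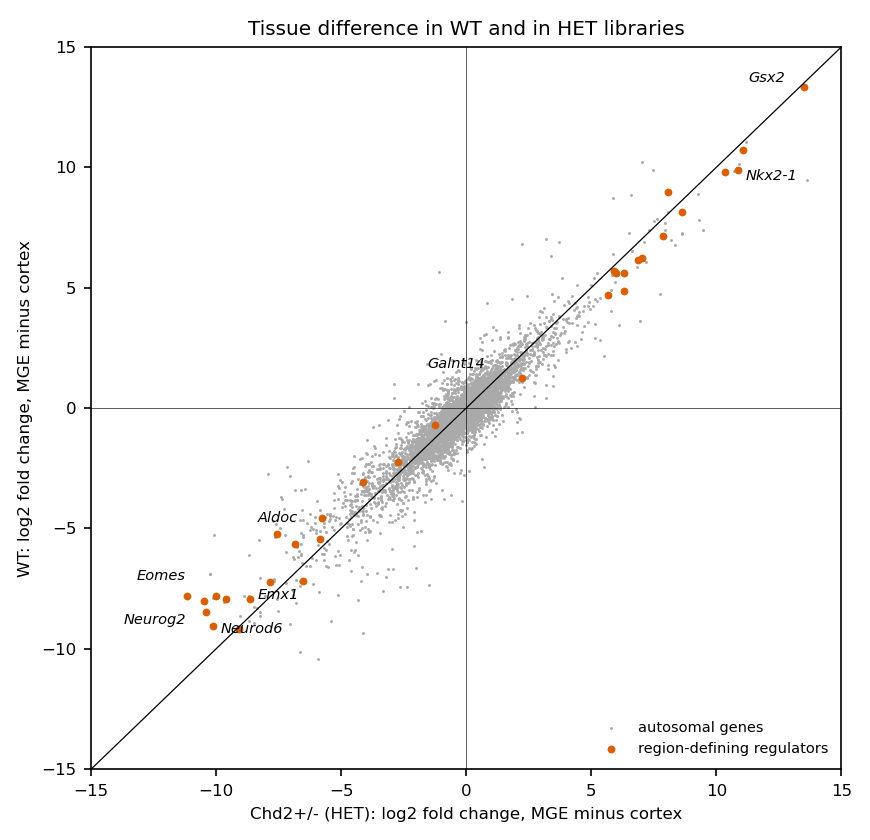
Log2 fold change of MGE minus cortex in WT (vertical) against HET (horizontal) for each autosomal gene, from one fit of 12 embryonic libraries, with the region-defining regulators in orange and the line of equal change in black. The regulators keep their side in both genotypes, from Dmrt3 and Neurod6 at the lower left to Gsx2 at the upper right. The fitted value of Gsx2, at 0 counts in WT cortex, depends on the prior count.

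Whether the tissue difference itself differed between WT and HET was tested as an interaction over the 12 embryonic libraries. With edgeR, 0 of 14628 autosomal genes passed, 596 (4.07%) had an unadjusted p under 0.05, limma-voom called 0 and DESeq2 called 5. Leaving out cortex HET 3 gave 400 calls, leaving out MGE WT 1 gave 3, and each of the other 10 single omissions gave 0. The lowest p belonged to Eomes, measured on the scale of this fit at 0.880, 1.27 and 2.19 CPM in WT MGE and 0.281, 0.257 and 0.166 CPM in HET MGE, beside 348, 418 and 345 CPM in WT cortex and 348, 343 and 338 CPM in HET cortex. Its difference of log2 fold changes, WT minus HET, was 2.47 (SE 0.40, edgeR adjusted p = 0.494). Neurog2 (0.880, 1.57 and 1.82 CPM in WT MGE, 0.197, 0.457 and 0.304 CPM in HET MGE) and Aldoc (8.75, 9.01 and 12.2 and 4.47, 6.16 and 4.65 CPM) had the same form, with every HET MGE value below every WT MGE value. Both were picked for a low p of this test, a choice that favours such separation, and neither passed (edgeR adjusted p = 0.558 for both).

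Lpl, a lipase, differed by -0.96 (SE 0.17, edgeR adjusted p = 0.558), with 38.7, 34.1 and 29.9 CPM in WT cortex and 21.7, 24.3 and 24.9 CPM in HET cortex. Chrna7, a nicotinic receptor subunit, differed by -1.06 (SE 0.23, adjusted p = 0.916), with 13.2, 11.4 and 15.3 CPM in WT cortex and 8.57, 7.70 and 9.57 CPM in HET cortex. In MGE the order was the reverse, with Lpl at 12.5, 12.9 and 15.2 CPM in WT and 17.3, 18.2 and 19.1 CPM in HET. Chrna7 stood at 3.78, 3.14 and 3.22 CPM in WT MGE and 4.38, 4.51 and 4.81 CPM in HET MGE. For these 2 genes the WT and HET values overlapped in neither tissue, with WT above HET in cortex and below it in MGE. Both were picked for a low interaction p, a choice that favours this pattern, and neither passed. All 3 MGE HET libraries carried Y-linked genes (summed at 216 to 264 CPM) and all 3 MGE WT libraries carried Xist, so in MGE the genotype and these markers cannot be told apart.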

How the data were processed

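Poly(A) RNA libraries of dissected tissue were sequenced, and the authors deposited whole-number counts per gene symbol for 18 libraries, of which 6 were compared and 6 HET embryonic libraries used beside them. FastQC, Trimmomatic, TopHat2 2.1.1, SAMtools and the mm10 build are named in the submitters' processing notes, as is DESeq2. No source used here gives the counting program, its strand setting or the annotation. Reads of genes that overlap in exons can therefore have been split or shared, and the depth of 26841671 to 38802765 counts per WT library limits genes of few counts. A count of 0 was given a floor of 3 counts per library, and intervals of ratios are exact 95% intervals that cover counting error only.

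The counts were tested with the quasi-likelihood F test of edgeR 4.0.16 (R 4.3.3) after filterByExpr (count minimum 10, total minimum 15), with TMM scaling, 1 mean per group and no covariate. Adjusted p-values are Benjamini-Hochberg over all 14739 genes tested, the threshold is 0.05, and a log2 fold change is MGE minus cortex. CPM values use the TMM-scaled library size. The SE is the log2 fold change divided by the square root of F. Symbols were placed with GENCODE M21 (22732) or RefSeq (1167), 161 were not placed, and genes of X, Y or no place were left out of all counts of genes. No pair of libraries held the same values. The difference between WT and HET was an interaction term over 12 libraries.

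In simulated counts of the WT comparison over 14739 genes, 91 of 100 genes changed 2-fold and 51 of 100 changed 1.5-fold were called. Of the 164 calls, 22 (13.4%) fell on unchanged genes, so the adjusted p can be too small for genes near the threshold. It was a single run in which no other gene was changed, whereas 7010 of 14143 autosomal genes were called in the data. The simulated shares therefore do not measure the error or the power of the comparison itself. Genes are named by a rule: the region-defining regulators, the 12 largest changes in each direction at 20 CPM or more, the 6 largest differences per kb in each tissue, up to 4 called members per list and direction with the 2 most abundant, and the 5 lowest interaction p-values. The 12 and the 6 were taken only from called genes whose groups did not overlap and that reached 20 CPM. The text describes those that carry each comparison. The members, lists and rule were chosen with earlier results of these data known. Alternatives were other scalings, no filter, DESeq2 1.42.0, limma-voom (limma 3.58.1), wider fits, a replicate block, a test against 2-fold, and omission of single libraries. A few genes are not reported here. Proteins are not shown, and the promoter windows are RefSeq's.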

Additional observations from a re-analysis of the deposited data

How the results depend on the processing

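The 7010 WT calls became 7002 with RLE scaling, 6948 with upper-quartile scaling, 6995 without a filter, 7061 with DESeq2 and 6983 with limma-voom, and no called gene tested under any setting reversed its sign. Upper-quartile scaling moved the median of all genes to -0.058 and the share higher in MGE from 50.3% to 43.3% of the calls. One fit of 12 libraries gave 5797 calls, and the Y-linked level as a covariate in it 4631, 2169 of them higher in MGE. Tested against a 2-fold change, 1138 genes passed, 390 higher in MGE and 748 higher in cortex. Omitting single libraries gave 5789 (without cortex 3) to 6587 (without cortex 2) calls.

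For the difference between WT and HET, edgeR called 0 genes and DESeq2 called 5. Omitting single libraries gave 0 to 400, with 400 without cortex HET 3 and 3 without MGE WT 1, and the cause was not tested. Omitting cortex HET 1 and 2 together, chosen after seeing the data, gave 0.

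Deviations of libraries with the same replicate number had correlations of 0.0146, 0.0689 and 0.123 in WT and -0.0959, 0.00548 and -0.0861 in HET. Pairs with different numbers ran from -0.108 to 0.0362 in WT and from -0.0430 to 0.110 in HET. Deviations from means of 3 libraries cannot decide whether the numbers pair the libraries. A fit with a replicate block gave 7251 WT calls, 6831 of them shared, and 0 for the difference between genotypes. Among the genes named with values, the replicate block added Zic1 (adjusted p = 6e-04) and Bcl11b (0.0135) and lost Six3 (0.0526), Ebf1 (0.0501) and Galnt14 (0.0797).

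Of 3104 results of the 194 genes named with values, 3010 kept their direction and their side of the threshold. The exceptions in direction were uncalled genes: Cdh2 (-0.017 with upper-quartile scaling, -0.016 to 0.070 over omissions), Vim (-0.24 to 0.029) and Hbb-y (-0.32 to 1.01). Otx2 was called by limma-voom alone (adjusted p = 0.0418). Folds of genes with a few counts in 1 tissue depend on those counts, and genes under the filter could not be tested at this depth.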

Other observations

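The genes and lists here were chosen after their values were seen, and nothing beyond the values is drawn from them. Imprinted genes, expressed from one parental copy, were higher in MGE more often than in cortex. Of 37 tested, 21 were higher in MGE, 5 were higher in cortex and 11 were not called, beside 24.9% and 24.6% of all tested genes. Past 2-fold were 15 and 5 of them, beside 5.46% and 9.74% of all genes, with a median log2 fold change of 0.70. Asb4, a placental and hypothalamic imprinted gene, was measured at 199, 200.1 and 147 CPM in MGE against 7.21, 2.84 and 5.802 CPM in cortex (log2 fold change 5.11, SE 0.34, edgeR adjusted p = 9.67e-05). Peg10, a gene derived from a retrotransposon, reached 413, 441 and 267 CPM in MGE against 31.4, 29.2 and 29.1 CPM in cortex (log2 fold change 3.65, SE 0.20, edgeR adjusted p = 6.14e-06). In the Dlk1 and Dio3 region, Dlk1 (log2 fold change 2.87), the noncoding Meg3 (2.32) and Dio3, which inactivates thyroid hormone (6.92), were all higher in MGE. Dio3 rested on 10 counts in all of cortex, and its log2 fold change was 6.29 without cortex library 1 and 8.61 without cortex library 3. The 5 higher in cortex were the growth factor Igf2 (-2.32), the amino acid transporter Slc38a4 (-2.66), Plagl1 (-1.51), Cdkn1c (-1.20) and the noncoding Kcnq1ot1 (-1.02). Igf2 is also a gene of meninges, whose summed list stood at 819 to 1355 CPM in cortex against 268 to 406 CPM in MGE, and the part of those cells was not tested.

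Genes of monoamine synthesis and storage had counts in MGE. Of 8 tested, 4 were higher in MGE, 1 was higher in cortex and 3 were not called, and 6 further members had too few counts to be tested. Th, the first enzyme of dopamine synthesis, was measured at 24.1, 14.2 and 14.1 CPM in MGE against 0.312, 0.229 and 0 CPM in cortex (log2 fold change 6.51, SE 0.53, edgeR adjusted p = 4.06e-05; 7.12 without cortex library 1), with the most in MGE library 1. Slc18a2, the vesicular monoamine transporter, reached 89.4, 137 and 126 CPM in MGE against 2.09, 2.71 and 2.33 CPM in cortex (log2 fold change 5.62, SE 0.20, edgeR adjusted p = 1.68e-07), and Ddc, the decarboxylase, had a log2 fold change of 3.46.

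Cytosolic ribosomal protein genes were lower in MGE almost as a block and by a small amount. Of 70 tested, 67 were higher in cortex, 1 was higher in MGE and 2 were not called, with a median log2 fold change of -0.50 beside 0.0016 over all tested genes. Their summed level ran from 47914 to 52280 CPM in MGE and from 67687 to 70325 CPM in cortex, without overlap. The only one past 2-fold was Rps27, at 1.62, 1.83 and 1.18 CPM in cortex against 0.884, 0.877 and 0.468 CPM in MGE (log2 fold change -1.05, SE 0.38, edgeR adjusted p = 0.0402), and it lost the call with DESeq2 (adjusted p = 0.0601) and in edgeR without any one of the 3 MGE libraries or cortex library 1 or 2 (adjusted p up to 0.142). RNA quality and depth were not tested against this difference.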
